A study of Mus musculus with 12 samples.

Results

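Autosomal genes were compared between CD4+ T cells of XY-Sry mice and of XX mice, the pair of groups that differ in sex chromosomes and in Sry together, as ordinary males and females do. Members were all genes that the mouse annotation places on chromosomes 1 to 19, and every difference is given as XY-Sry minus XX. Of 39017 gene identifiers in the count table, 34850 were autosomal. Of the 14585 genes that had enough reads to be tested, 13777 were autosomal, and these are the genes described here.

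All 12 libraries of the study came from SJL mice of a model that separates gonads from sex chromosomes. In it the Y chromosome, written Y-, has lost the testis-determining gene Sry, and a separate Sry transgene sits on an autosome, so gonad type and sex chromosomes are inherited independently. XX and XY- mice are gonadal females, XXSry and XY-Sry mice are gonadal males, and each group had 3 libraries. Every mouse was gonadectomized at 4 to 6 weeks of age, with carprofen for pain and amoxicillin in the drinking water. CD4+ T cells were purified from axillary, brachial and inguinal lymph nodes by magnetic negative selection and activated with anti-CD3/CD28 beads for 36 hours. Collection at 8 to 12 weeks of age is stated for the females, and no age at collection is given for the males in the sources used here. XY-Sry and XX mice therefore differed in the second sex chromosome, in the Sry transgene and in the gonad they carried before surgery, and these cannot be told apart in this comparison. The labels do not say if libraries stand for separate animals, so the p-values below measure only the spread between libraries, which may be partly technical.

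Beads carrying antibodies to CD3 and CD28 stand in for antigen and costimulation. Through calcium, NF-kB and AP-1 signalling they drive a resting CD4+ T cell to transcribe cytokine genes, to raise glycolysis and to divide. The early genes of this response, such as the NR4A and EGR factors, follow the strength of the receptor signal, while glycolytic genes also answer to oxygen through hypoxia-inducible factor, and the antiviral genes answer to type I interferon.

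The labels held in every library. Sry had 1410 to 1575 reads in the XY-Sry libraries and 0 in the XX libraries, Xist had 41561 to 51786 reads in XX and 39 to 64 in XY-Sry, and the Y gene Ddx3y had 1335 to 1710 reads in XY-Sry and 0 to 2 in XX. Total counts in these 6 libraries ran from 11664186 to 16710188. XX replicate 3 stood apart: it had the lowest total, and mitochondrial RNAs took 5.01% of its reads against 2.27% to 2.87% in the other 11 libraries. The main counts and calls are therefore also given without it. The CD4 T cell markers were present in all 6 libraries, with a summed level of 3113 to 3283 CPM (counts scaled to library size) over 10 genes in XX and 3149 to 3189 CPM in XY-Sry. Of these 10 markers 1 passed the test, Cd5, a negative regulator of receptor signalling, at 239, 263 and 230 CPM in XX and 301, 297 and 311 CPM in XY-Sry. Genes listed as markers of other cell types also had reads, which need not come from those cells. The 4 tested B cell markers summed to 3.70 to 5.34 CPM in XX and 2.81 to 4.49 CPM in XY-Sry, and the 3 tested myeloid markers to 16.7 to 19.8 CPM and 19.1 to 20.5 CPM, with Itgax, S100a8 and S100a9 at 0 in every library. The 7 tested CD8 and NK cell markers summed to 44.99 to 88.3 CPM in XX and 48.2 to 60.3 CPM in XY-Sry, most of it Eomes at 66.9, 26.96 and 48.5 CPM in XX. Their median log2 fold change was -0.54, and -0.50 without XX replicate 3, with 5 of the 7 lower. The 4 tested stromal and endothelial markers summed to 89.5 to 108 CPM in XX, nearly all of it Pecam1, and to 79.7 to 95.6 CPM in XY-Sry, with Ccl19 and Ccl21a at 0. The 4 tested gamma delta and NKT markers summed to 5.86 to 6.23 CPM in XX and 5.10 to 5.88 CPM in XY-Sry. The single tested platelet marker, Itga2b, lay at 1.18 to 1.51 CPM and 0.581 to 1.33 CPM, with Hba-a1, Hba-a2 and Gp9 at 0. The part that other cells play in the differences below was not tested, and in bulk RNA fewer cells of a type and less RNA per cell cannot be told apart.

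Autosomal genes differed between XY-Sry and XX cells, most of the called ones by less than 2-fold. With all libraries 826 of the 13777 tested autosomal genes, or 6%, passed an adjusted p of 0.05 in edgeR's quasi-likelihood test. Of these 347 were higher in XY-Sry, which is 2.52% of the tested genes, and 479 were lower, which is 3.48%. The median absolute log2 fold change of the called genes was 0.46, with an interquartile range of 0.33 to 0.76 and a smallest value of 0.18. Only 31 genes were higher by more than 2-fold and 92 lower by more than 2-fold. The median over all autosomal genes was -0.00 with all libraries and 0.00 without XX replicate 3. Among the called genes the median log2 fold change was 0.39 for those higher and -0.54 for those lower. In 824 of the 826 called genes the 3 XX levels and the 3 XY-Sry levels did not overlap, while the same held for 29% of all tested autosomal genes. At the threshold, Purb at an edgeR adjusted p of 0.0498 was among the last genes called and Mrps6 at 0.0503 the first not called.

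Leaving out single libraries changed how many genes passed. No called gene changed direction, but this was nearly fixed in advance. In 824 of the 826 the XX and XY-Sry levels did not overlap, so a change of sign was hardly possible. Without XX replicate 3, 383 autosomal genes were called, or 2.78%, of which 152 (1.1%) were higher and 231 (1.68%) lower. Of these 383 genes 333 were also called with all libraries, which is 86.9% of the shorter list and 40.3% of the longer one. All 826 genes kept their sign, and the ratio of their log2 fold changes without and with this library had a median of 0.97. Removal of XY-Sry replicate 1, 2 or 3 left 211, 164 and 336 called genes, and removal of XXSry replicate 2, which enters only through the shared estimate of spread, left 513. Across all 12 such fits 134 genes, 16.2% of the 826, were called each time, 45 of them higher and 89 lower.

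**Figure D1:**
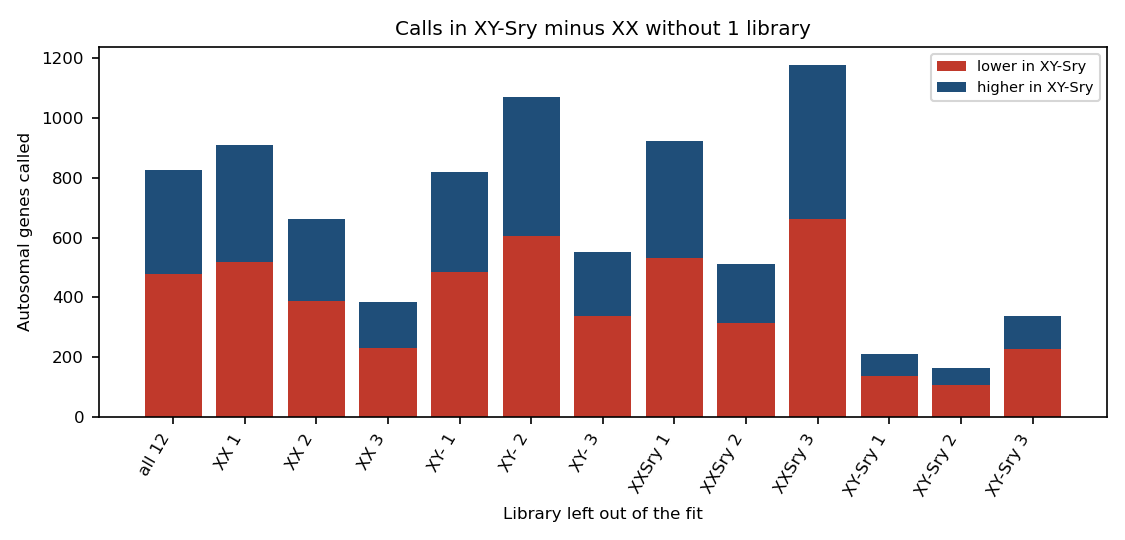
Number of autosomal genes called in XY-Sry minus XX (vertical axis) with all 12 libraries and with each library left out in turn (horizontal axis), split into genes higher (blue) and lower (red) in XY-Sry. The count ran from 164 without XY-Sry replicate 2 to 1179 without XXSry replicate 3, against 826 with all libraries.

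The largest increases are described for called protein-coding genes with an average log2 CPM of at least 1 and no overlap between the groups, a choice that leaves out some called genes with larger fold changes. The 12 that led were Ccl3, Cyp1a1, Mcam, Utf1, Il2, Ccl4, Tmem121b, Nqo1, Kit, Zfp385a, Ntn1 and Egr2, which include chemokine genes, a cytokine gene and metabolic enzyme genes. Mcam (chr9:44134469-44142727), the adhesion molecule CD146, which marks a Th17-prone share of human CD4 T cells, had 1.99, 1.59 and 1.51 CPM in XX and 4.01, 4.39 and 5.03 CPM in XY-Sry. Its log2 fold change was 1.37 ± 0.17 (SE, n = 3 libraries per group; edgeR adjusted p = 0.000707). Every XY-Sry library thus held more than 2 times the Mcam level of any XX library, and without XX replicate 3 the log2 fold change was 1.31. Nqo1 (chr8:107388225-107403206), a quinone reductase induced by NRF2 and by the aryl hydrocarbon receptor, had 1.62, 1.66 and 1.16 CPM in XX and 3.12, 3.87 and 3.40 CPM in XY-Sry, a log2 fold change of 1.20 ± 0.19 (edgeR adjusted p = 0.00382). Cyp1a1, the monooxygenase that is the classic target of the aryl hydrocarbon receptor, had 1.06, 1.34 and 1.16 CPM in XX and 3.59, 2.91 and 2.88 CPM in XY-Sry, a log2 fold change of 1.40 ± 0.23 (edgeR adjusted p = 0.00448). Ahr, the receptor itself, was higher as well, by 0.65 ± 0.18 (edgeR adjusted p = 0.0482), but was not called without XX replicate 3 (edgeR adjusted p = 0.125). Tiparp, another target of this receptor, went the other way, at -0.61 ± 0.09 (edgeR adjusted p = 0.0022), and was called whichever single library was left out. It was singled out after its values were seen, and targets of this receptor were not examined as a list.

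Il2 (chr3:37120523-37125959), the T cell growth factor, had 6.28, 4.65 and 6.94 CPM in XX and 12.8, 13.5 and 16.9 CPM in XY-Sry. Its log2 fold change was 1.28 ± 0.31 with all libraries (edgeR adjusted p = 0.0285) and 1.39 without XX replicate 3 (edgeR adjusted p = 0.0576), so the size was kept and the call was not. Ccl3, which encodes the inflammatory chemokine MIP-1 alpha, had 2.74, 0.956 and 1.78 CPM in XX and 6.41, 6.00 and 5.03 CPM in XY-Sry. Its neighbour Ccl4, which encodes MIP-1 beta, had 4.11, 2.93 and 2.85 CPM in XX and 7.97, 7.55 and 8.21 CPM in XY-Sry. By the choice of genes, both chemokines were higher in every XY-Sry library than in the highest XX library. Both missed the threshold without XX replicate 3, at edgeR adjusted p values of 0.0618 and 0.0761. Of the 12 leading genes 7 were called without that library, the other 5 being Ccl3, Il2, Ccl4, Ntn1 and Egr2. Cyp1a1, Mcam, Utf1 and Nqo1 were called whichever single library was left out. All 12 were low to moderately expressed, with group means between 1.18 and 28.4 CPM.

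The 12 genes with the largest decreases were chosen in the same way. Dapl1 (chr2:59484653-59505020), a marker of naive T cells, had 17.0, 19.1 and 23.6 CPM in XX and 4.61, 6.33 and 6.21 CPM in XY-Sry, a log2 fold change of -1.80 ± 0.22 (edgeR adjusted p = 0.000492). Vldlr (chr19:27216484-27254231), a lipoprotein receptor, had 31.6, 30.2 and 31.4 CPM in XX and 12.8, 4.78 and 10.3 CPM in XY-Sry, a log2 fold change of -1.74 ± 0.30 (edgeR adjusted p = 0.00497). The XX levels of Vldlr were nearly equal while those of XY-Sry ranged widely, with replicate 2 the lowest. Rgs11, a regulator of G protein signalling, had 29.1, 43.7 and 32.9 CPM in XX and 14.8, 8.33 and 14.1 CPM in XY-Sry, a log2 fold change of -1.51 ± 0.27 (edgeR adjusted p = 0.00626). These 3 genes were called whichever single library was left out.

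F2rl1, the protease-activated receptor PAR2, had 3.92, 3.89 and 2.67 CPM in XX and 0.539, 1.42 and 0.961 CPM in XY-Sry, a log2 fold change of -1.87 ± 0.37 (edgeR adjusted p = 0.0105). Akr1c18, a progesterone-reducing hydroxysteroid dehydrogenase, had 5.35, 20.6 and 9.88 CPM in XX and 3.71, 2.13 and 1.70 CPM in XY-Sry, a log2 fold change of -2.23 ± 0.44 (edgeR adjusted p = 0.0109). The XX libraries varied widely for Akr1c18, with replicate 2 the highest. That the lowest of them lay above the highest XY-Sry library follows from the choice of genes. Klrk1, the NKG2D receptor of NK and cytotoxic cells and a marker of those cells, had 5.41, 1.53 and 2.85 CPM in XX and 0.419, 0.968 and 0.666 CPM in XY-Sry, a log2 fold change of -2.26 ± 0.43 (edgeR adjusted p = 0.00921). Beside it, Cd8a was not called (log2 fold change -0.75, edgeR adjusted p = 0.101) and Cd8b1 had a log2 fold change of 0.13. Cd8a had 3.11, 2.93 and 4.98 CPM in XX and 1.80, 2.45 and 2.14 CPM in XY-Sry, without overlap. In the other groups Cd8a had 6.49, 5.17 and 3.86 CPM in XY- and 2.16, 1.41 and 2.04 CPM in XXSry. Cd8b1 had 12.4, 11.2 and 10.2 CPM in XY- and 13.1, 12.2 and 13.0 CPM in XXSry. The remaining genes of this group were Itga7, Stc1, Smtnl2, H2-Ob, P4ha2 and Cdhr3, and all except Itga7 and Stc1 were also called without XX replicate 3.

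**Figure D2:**
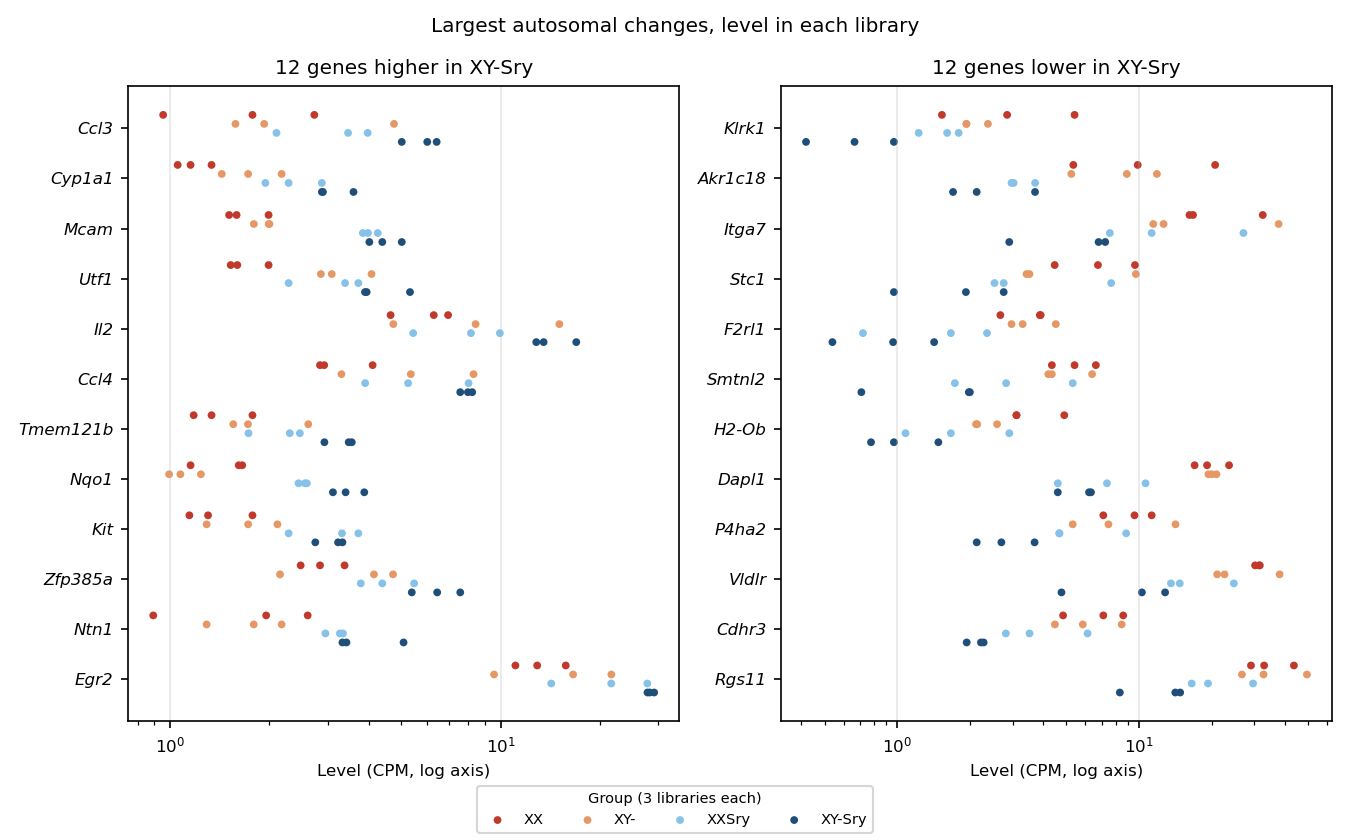
Level in CPM (horizontal log axis) of the 12 called genes with the largest increase (left) and the 12 with the largest decrease (right) in XY-Sry minus XX, with 1 point for each of 3 libraries in each of the 4 groups. Genes were chosen for no overlap between XY-Sry (dark blue) and XX (red) and for a large fold change. Both the separation and its size therefore follow from the choice, for example 4.01 to 5.03 CPM against 1.51 to 1.99 CPM for Mcam.

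The lowest p was that of Xdh (chr17:73883895-73950196), the xanthine dehydrogenase that makes uric acid in purine breakdown. It had 47.0, 40.8 and 43.6 CPM in XX and 22.4, 19.7 and 19.1 CPM in XY-Sry, a log2 fold change of -1.10 ± 0.11 (edgeR adjusted p = 4.48e-05), and -1.10 again without XX replicate 3. Low p values were also found for Nrn1, the neuritin gene, at 73.2, 77.3 and 80.5 CPM in XX and 46.1, 42.6 and 43.0 CPM in XY-Sry, and Gpt2, the mitochondrial alanine aminotransferase, with a log2 fold change of -0.94 ± 0.11 (edgeR adjusted p = 0.000472). Xdh, Nrn1 and Gpt2 were singled out after their values were seen.

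Gene lists of known pathways separated into a few in which many members moved one way and many in which few did. Each list is described by its called members and by the median log2 fold change of its tested members, to be read against the 2.52% of all tested autosomal genes that were higher, the 3.48% that were lower and the overall median of -0.00. Glycolysis and hypoxia genes and type I interferon genes were the lists with the most lower calls, and NF-kB targets the list with the most higher calls.

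**Figure D3:**
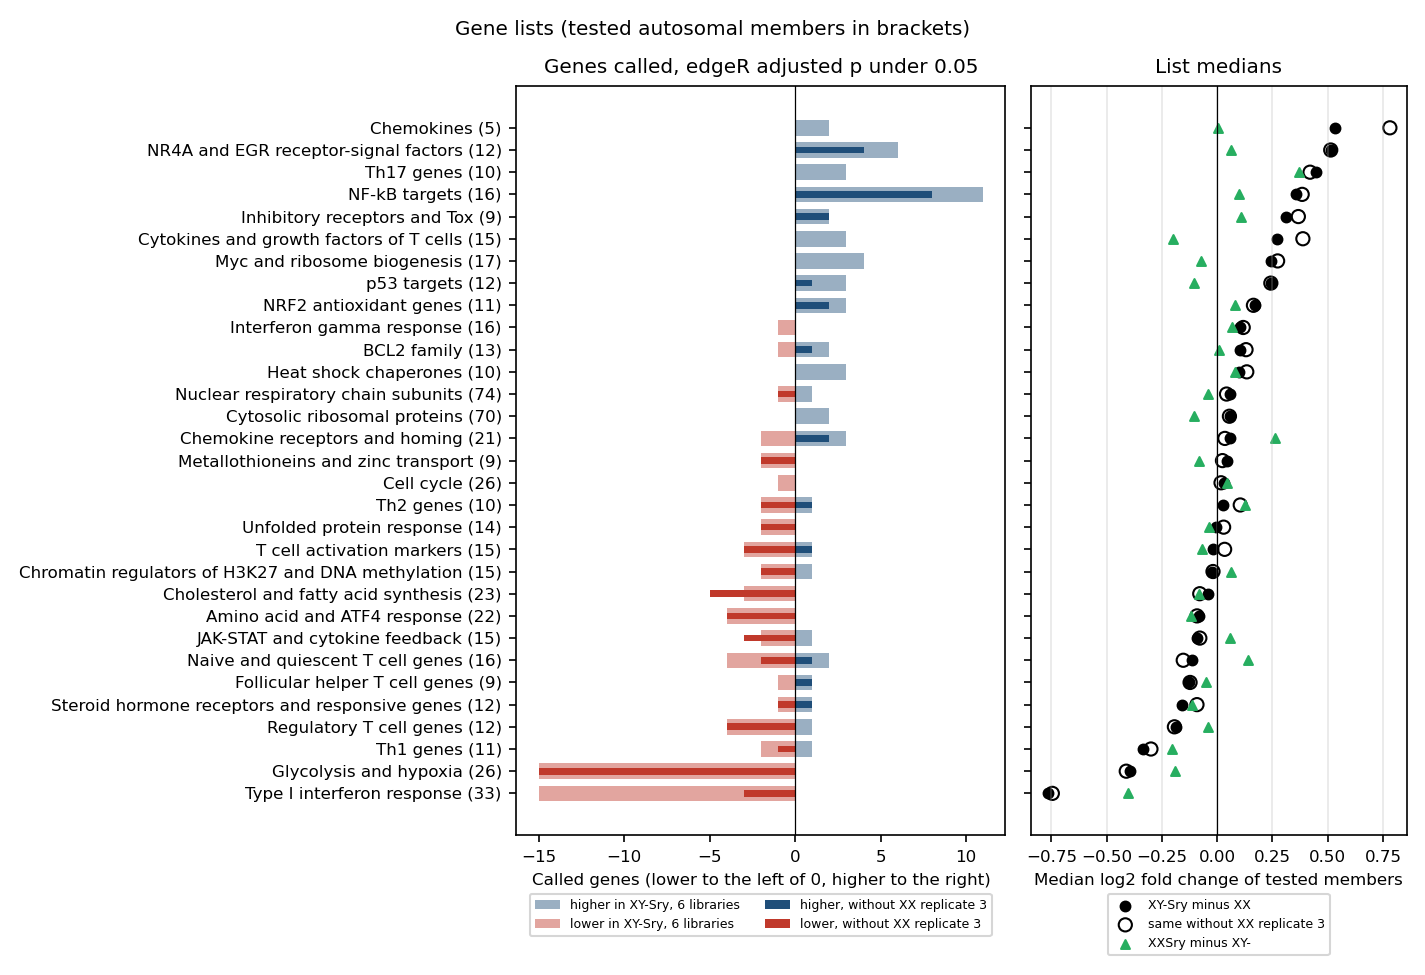
For 31 gene lists (vertical axis, tested autosomal members in brackets), the left panel gives the number of members called lower (left of 0) and higher (right of 0) with all libraries (pale bars) and without XX replicate 3 (narrow dark bars), and the right panel the median log2 fold change of the tested members. Glycolysis and hypoxia kept 15 lower calls without XX replicate 3, while the type I interferon list went from 15 to 3.

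Most genes of the glycolysis and hypoxia list had a lower level in XY-Sry cells. Of 26 tested members 15 were called lower and none higher, and the list median was -0.40. Without XX replicate 3 the count was again 15 and the median -0.41, with Pfkm, Aldoa and Eno1 called in place of Gpi1, Aldoc and Egln1. A lower level was found for 25 of the 26, Gapdh being the exception at 0.03. The lower members covered several steps: glucose uptake (Slc2a1, Slc2a3), glycolytic enzymes (Gpi1, Pfkp, Aldoc, Tpi1, Pkm), lactate export (Slc16a3) and the block on pyruvate oxidation (Pdk1). Hypoxia targets that do not belong to glycolysis were also among them (Vegfa, Egln1, Egln3, Bnip3, P4ha1, Ero1l). Hif1a, the oxygen-regulated transcription factor subunit, had a log2 fold change of -0.14 and was not called, and neither were Hk2, Ldha or Eno1, at -0.23, -0.11 and -0.19. Outside the list, the enolase gene Eno3 was called higher, at 0.79 ± 0.11 (edgeR adjusted p = 0.0016), whichever single library was left out. The enolase gene Eno2, also outside the list, was called lower at -1.19 (edgeR adjusted p = 0.0251). Both were singled out after their values were seen.

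Among these genes the angiogenic factor Vegfa (chr17:46016993-46032369) had 44.3, 41.7 and 42.1 CPM in XX and 23.3, 17.2 and 23.8 CPM in XY-Sry, a log2 fold change of -0.99 ± 0.13 (edgeR adjusted p = 0.000764). Egln3, a prolyl hydroxylase that marks hypoxia-inducible factor for destruction, had 253, 194 and 227 CPM in XX and 131, 96.2 and 134 CPM in XY-Sry, a log2 fold change of -0.90 ± 0.12 (edgeR adjusted p = 0.00123). Slc2a1, the glucose transporter GLUT1, had 261, 240 and 249 CPM in XX and 172, 143 and 186 CPM in XY-Sry, a log2 fold change of -0.59 ± 0.09 (edgeR adjusted p = 0.00301). For all 3 genes the groups were well apart, and XY-Sry replicate 2 was the lowest library of the 6. Slc2a3, a second glucose transporter, had 291, 249 and 226 CPM in XX and 136, 77.5 and 131 CPM in XY-Sry, a log2 fold change of -1.16 ± 0.23 (edgeR adjusted p = 0.0105), again with XY-Sry replicate 2 lowest. Slc2a1, Pfkp, Tpi1, Slc16a3, Pdk1, Egln3 and Vegfa were called whichever library was left out. The summed level of the whole list was 10402 to 11203 CPM in XX and 7990 to 9113 CPM in XY-Sry, so the groups did not overlap.

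Hypoxia-inducible factor binds DNA at sites with the core ACGTG. In windows from 250 bases before to 50 after the RefSeq start site, this core or its reverse complement CACGT stood in 18 of the 24 glycolysis and hypoxia genes that had a window, in 9 of the 13 called ones, and in 29.5% of 9576 tested autosomal genes with a window. Stretches of 3 called genes with the core upstream of the start are shown from RefSeq on GRCm38.p6, chosen to let the core be seen in its setting, with the core in capitals. A match describes the letters and not a bound site. Slc2a1 is from chr4:119108665-119108744 on the plus strand, Slc16a3 from chr11:120948987-120949066 on the plus strand, and Bnip3 from chr7:138909560-138909639 on the minus strand.
Slc2a1: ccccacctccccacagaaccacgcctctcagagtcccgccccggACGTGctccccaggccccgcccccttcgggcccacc
Slc16a3: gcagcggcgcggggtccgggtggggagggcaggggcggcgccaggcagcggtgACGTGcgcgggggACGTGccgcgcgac
Bnip3: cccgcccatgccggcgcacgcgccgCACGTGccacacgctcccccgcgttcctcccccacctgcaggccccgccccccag

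Type I interferon genes were lower in XY-Sry cells, with fewer calls once XX replicate 3 was left out. Of 33 tested members 15 were called lower and none higher, the list median was -0.77, and 30 of the 33 had a lower level. Without XX replicate 3 the median was -0.75 and 3 members were called, Ifit2, Isg20 and Oas3. The calls covered sensors of viral RNA (Ddx58, Dhx58), effectors (Ifit2, Ifit3, Isg20, Mx2, Oas2, Oas3, Oasl2, Eif2ak2), an apoptosis factor (Xaf1) and inducible genes of other functions (Rtp4, Ifi44, Trim30a, Herc6). Ifit3 and its near-identical neighbour Ifit3b, at a log2 fold change of -0.85 and not called, may share reads. The signalling components Stat2 and Irf9 were not called, at -0.31 and -0.15.

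Ifit2, which binds viral RNA, had 104, 93.1 and 99.8 CPM in XX and 72.8, 75.1 and 78.4 CPM in XY-Sry, a log2 fold change of -0.39 ± 0.07 (edgeR adjusted p = 0.00471), and was the only list member called whichever library was left out. Ifit3 had 14.9, 10.6 and 16.2 CPM in XX and 4.61, 6.39 and 7.40 CPM in XY-Sry, a log2 fold change of -1.18 ± 0.24 (edgeR adjusted p = 0.0137, and 0.0515 without XX replicate 3). Oas3, which makes the activator of the antiviral nuclease RNase L, had 95.7, 66.3 and 71.7 CPM in XX and 32.4, 41.0 and 50.7 CPM in XY-Sry, a log2 fold change of -0.92 ± 0.21 (edgeR adjusted p = 0.0214, and 0.0455 without XX replicate 3). The groups did not overlap for these 3 genes, and XY-Sry replicate 3 was the highest of its group in each. Of 16 tested genes of the interferon gamma response 1 was called, Gbp7, a guanylate-binding protein, at -0.45 ± 0.09 (edgeR adjusted p = 0.0157, and 0.0525 without XX replicate 3), and the list median was 0.10.

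The interferon-stimulated response element was searched as TTTC, any 2 bases and TTTC, or on the other strand GAAA, any 2 bases and GAAA, in the same windows. It stood in 13 of the 23 type I interferon genes with a window, in 5 of the 11 called ones and in 3.91% of all 9576 genes. The stretches of Ifit3 (chr19:34583348-34583427, plus strand) and Oas3 (chr5:120777680-120777759, minus strand) are shown from RefSeq on GRCm38.p6 because both genes were called and hold the element upstream, in capitals.
Ifit3: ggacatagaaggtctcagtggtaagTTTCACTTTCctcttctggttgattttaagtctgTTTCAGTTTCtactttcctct
Oas3: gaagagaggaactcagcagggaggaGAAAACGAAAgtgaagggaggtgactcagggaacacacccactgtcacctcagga

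NF-kB genes were higher in XY-Sry cells. Of 16 tested members 11 were called higher and none lower, the list median was 0.36, and without XX replicate 3 the count was 8, among them Tnip1, which was not called with it, and the median 0.38. The calls held subunits (Nfkb1, Nfkb2, Rel, Relb), inhibitors that NF-kB itself induces (Nfkbia, Nfkbie, Tnfaip3) and targets in survival and adhesion (Bcl2l1, Birc3, Traf1, Icam1). Relb (subunit of the non-canonical pathway) had 22.02, 22.2 and 19.3 CPM in XX and 35.3, 36.5 and 39.8 CPM in XY-Sry, a log2 fold change of 0.81 ± 0.13 (edgeR adjusted p = 0.00389). Its partner Nfkb2 had 93.4, 88.0 and 90.0 CPM in XX and 147, 153 and 162 CPM in XY-Sry, a log2 fold change of 0.77 ± 0.13 (edgeR adjusted p = 0.00389). Within each group these libraries were tight, and the lowest XY-Sry library stood above the highest XX library by a wide margin. Nfkbia, which encodes the inhibitor IkB alpha, had 158, 152 and 157 CPM in XX and 200, 209 and 213 CPM in XY-Sry, a log2 fold change of 0.41 ± 0.07 (edgeR adjusted p = 0.00722). Relb, Nfkb2, Nfkb1 and Nfkbia were called whichever library was left out.

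A kappa B site, searched as GGG, any 2 bases and TTTCC, or on the other strand GGAAA, any 2 bases and CCC, stood in 5 of the 13 NF-kB list genes with a window, all 5 among the 9 called ones, and in 1.91% of all 9576 genes. The stretches of the inhibitor genes Nfkbia (chr12:55492648-55492727, minus strand) and Tnfaip3 (chr10:19015411-19015490, minus strand) are shown from RefSeq on GRCm38.p6 with the site in capitals, since both are called genes known for feedback on NF-kB.
Nfkbia: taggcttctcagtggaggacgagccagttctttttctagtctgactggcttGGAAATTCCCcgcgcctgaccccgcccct
Tnfaip3: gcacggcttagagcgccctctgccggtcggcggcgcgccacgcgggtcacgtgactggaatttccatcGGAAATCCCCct

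Early factors that follow T cell receptor signalling were also higher. Of the 12 tested NR4A, EGR and AP-1 genes 6 were called higher and none lower, with a list median of 0.51 with and without XX replicate 3 and 4 calls without it. Nr4a1 (chr15:101254269-101274795), the orphan receptor Nur77 used as a reporter of receptor signal strength, had 77.7, 66.3 and 82.7 CPM in XX and 139, 136 and 157 CPM in XY-Sry, a log2 fold change of 0.93 ± 0.13 (edgeR adjusted p = 0.00123). Junb, an AP-1 subunit, had 275, 250 and 252 CPM in XX and 371, 376 and 401 CPM in XY-Sry, a log2 fold change of 0.56 ± 0.07 (edgeR adjusted p = 0.000604). Both were called whichever library was left out. Egr2 and Egr3, factors that restrain activation and induce tolerance genes, had log2 fold changes of 1.10 ± 0.24 and 1.06 ± 0.24 (edgeR adjusted p = 0.0204 and 0.0209). Egr2 had 15.7, 11.1 and 12.9 CPM in XX and 27.8, 29.1 and 28.2 CPM in XY-Sry, and it was not called without XX replicate 3 (edgeR adjusted p = 0.0604). Fos and Fosl2 had log2 fold changes of -0.50 and -0.44 and were not called, nor were Nr4a2 and Nr4a3 at 0.30 and 0.60.

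The libraries of the other groups were also placed by these lists. The summed level of the NF-kB list was 1533 to 1593 CPM in XX and 1985 to 2066 CPM in XY-Sry. In XY- it was 1871, 1566 and 1723 CPM, and in XXSry 1971, 1841 and 1662 CPM. XY- replicate 2 thus lay within the XX range and XXSry replicate 1 just below the XY-Sry range. For the glycolysis list XY- had 10390, 11542 and 10196 CPM. Replicate 2 lay above every XX library, and replicates 1 and 3 lay below the lowest XX library, at 10402 CPM. XXSry had 9178, 9299 and 9958 CPM, all between the XX and the XY-Sry range.

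**Figure D4:**
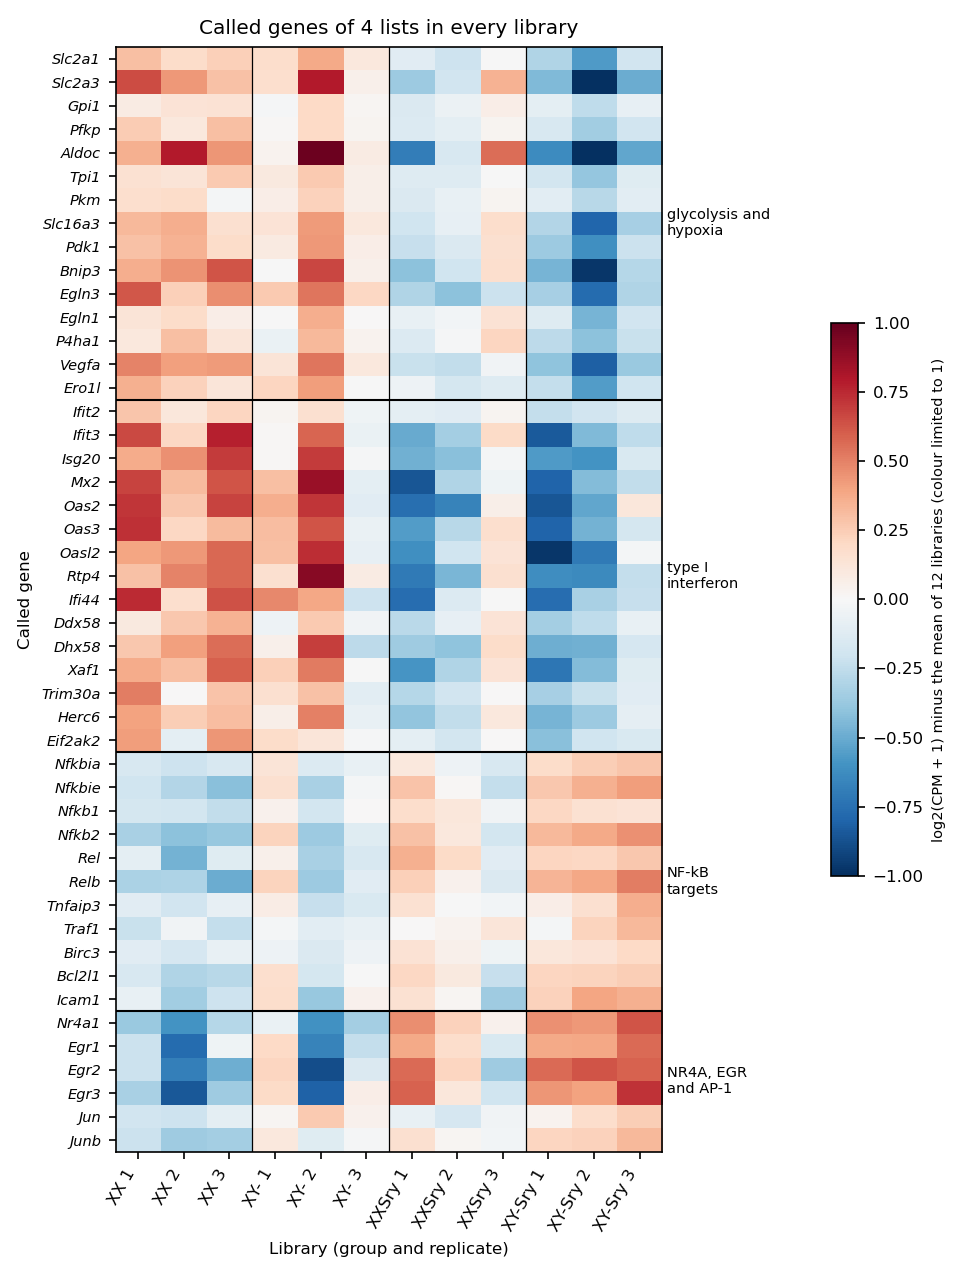
Level of each called gene of 4 lists (vertical axis) in each of the 12 libraries (horizontal axis) as log2(CPM + 1) minus the gene's mean over the 12 libraries, red above and blue below that mean. The genes were chosen as called between XX and XY-Sry, so the opposite colours of those columns follow from the choice. XY- replicate 2 has the colours of XX and XXSry replicate 1 those of XY-Sry.

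Cytokine and chemokine genes had 3 calls of 15 and 2 of 5 tested, beside 6% of all tested autosomal genes. All of these calls were higher and none was kept without XX replicate 3. Of 15 tested cytokines Tnf, Il2 and Il17f were called. Tnf, the inflammatory cytokine, had 74.96, 66.0 and 70.6 CPM in XX and 90.0, 100.1 and 95.5 CPM in XY-Sry, a log2 fold change of 0.43 ± 0.10 (edgeR adjusted p = 0.0201, and 0.0521 without XX replicate 3). Il17f stood at 0.382 to 0.995 CPM in XX and 1.498 to 2.71 CPM in XY-Sry, few reads in either group. Ifng and Il17a, the signature cytokines of Th1 and Th17 cells, had log2 fold changes of 1.17 and 1.39 and did not pass. Of 5 tested chemokines Ccl3 and Ccl4 were called.

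Among surface receptors, 2 of 9 tested inhibitory receptor genes were called, both higher. Pdcd1, which encodes PD-1, had 10.2, 13.2 and 8.99 CPM in XX and 21.4, 23.5 and 21.002 CPM in XY-Sry, a log2 fold change of 1.01 ± 0.14 (edgeR adjusted p = 0.00138), and was called whichever library was left out. Lag3, a receptor for MHC class II, had 46.5, 38.1 and 38.2 CPM in XX and 54.8, 59.1 and 60.05 CPM in XY-Sry, a log2 fold change of 0.50 ± 0.10 (edgeR adjusted p = 0.0102). Ctla4 had the opposite sign, -0.24 ± 0.07, and was not called (edgeR adjusted p = 0.0518). Of 15 activation markers Tnfrsf4, the costimulatory receptor OX40, was called higher at 0.29 ± 0.07, and Il2ra, Tfrc and Nfil3 lower. Il2ra, the high-affinity chain of the IL-2 receptor, had 2468, 2563 and 2491 CPM in XX and 2088, 2007 and 2019 CPM in XY-Sry, a log2 fold change of -0.30 ± 0.06 (edgeR adjusted p = 0.0109), opposite in direction to Il2. Cd69 and Cd44 were not called, at 0.30 and 0.29.

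Of 21 homing genes 3 were called higher, Mcam, Ccr8 and Ccr6, and 2 lower, among them the integrin gene Itga4. Ccr8, a chemokine receptor of Th2 and regulatory cells, had 9.33, 11.7 and 10.6 CPM in XX and 22.5, 22.7 and 18.5 CPM in XY-Sry, a log2 fold change of 1.01 ± 0.19 (edgeR adjusted p = 0.00845), and was called whichever library was left out. Mcam and Ccr8 were the homing genes called without XX replicate 3.

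Lists of helper cell types were short and had 2 or 3 calls each of 9 to 11 tested genes, beside 6% of all tested autosomal genes. Th1 genes had Tbx21, the master factor T-bet, called higher at 0.93 ± 0.26, and Stat4 and Il18r1, which carry IL-12 and IL-18 signals, lower at -0.54 ± 0.13 and -0.73 ± 0.20, of 11 tested. Without XX replicate 3 Stat4 was the only one of these called (edgeR adjusted p = 0.0481), and Tbx21 had an adjusted p of 0.121 in edgeR. Of 10 tested Th17 genes Ccr6, Il17f and Ahr were called higher, none lower, and none without XX replicate 3. The Th17 list median was 0.45 with all libraries and 0.42 without that library, 8 of the 10 had a higher level, and the summed level was 344 to 400 CPM in XX and 436 to 438 CPM in XY-Sry. Of 10 Th2 genes Ccr8 was higher and Nfil3 and Il4ra lower, while Gata3, the Th2 master factor, had a log2 fold change of 0.05. Of 9 follicular helper genes Pdcd1 was higher and Slamf6 lower, and of these Pdcd1 alone was called without XX replicate 3.

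Regulatory T cell genes leaned lower, with 4 of 12 tested called lower and 1 higher, and the 4 lower calls stood without XX replicate 3. Gpr83, an orphan receptor enriched in regulatory T cells, had 176, 262 and 232 CPM in XX and 120.0, 119.9 and 127 CPM in XY-Sry, a log2 fold change of -0.87 ± 0.15 (edgeR adjusted p = 0.00625). Izumo1r, the folate receptor 4, had 239, 309.9 and 312 CPM in XX and 185, 171 and 181 CPM in XY-Sry, a log2 fold change of -0.68 ± 0.11 (edgeR adjusted p = 0.00314). Both were called whichever library was left out. Ikzf2, which encodes Helios, went the other way, at 0.36 ± 0.09 (edgeR adjusted p = 0.037, and 0.0783 without XX replicate 3).

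Of 16 naive and quiescent T cell genes 4 were called lower, among them Dapl1, Il7r and Lef1, and 2 higher, Tcf7 and Btg1. Il7r, the survival receptor for IL-7, had 59.3, 54.0 and 55.8 CPM in XX and 39.3, 38.6 and 38.8 CPM in XY-Sry, a log2 fold change of -0.54 ± 0.10 (edgeR adjusted p = 0.0105). Tcf7, which encodes the naive and memory factor TCF1, had 413, 478 and 475 CPM in XX and 588, 551 and 556 CPM in XY-Sry, a log2 fold change of 0.31 ± 0.06 (edgeR adjusted p = 0.0141). Dapl1, Il7r and Tcf7 were called without XX replicate 3, so that genes of this list stood on both sides.

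Stress and biosynthesis lists had fewer calls, and most ran in 1 direction. Of 22 ATF4 and amino acid response genes 4 were called lower with and without XX replicate 3: Vldlr, Nupr1, Ddit3 and Asns. Ddit3, the stress factor CHOP, had 29.2, 28.0 and 29.3 CPM in XX and 18.5, 19.2 and 22.04 CPM in XY-Sry, a log2 fold change of -0.54 ± 0.10 (edgeR adjusted p = 0.00859), while Atf4 itself had -0.15. Of 14 unfolded protein response genes Xbp1 and Pdia4 were lower with and without that library. Xbp1, the transcription factor spliced during endoplasmic reticulum stress, had 381, 416 and 365 CPM in XX and 263, 262 and 269 CPM in XY-Sry, a log2 fold change of -0.55 ± 0.07 (edgeR adjusted p = 0.000611). Hspa5, the chaperone BiP, had a log2 fold change of 0.11, so the list did not move together.

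Of 23 sterol and fatty acid synthesis genes 3 were lower, the desaturase Scd1 at -0.49 ± 0.08 and the sterol enzymes Lss and Msmo1 at -0.30 ± 0.05 and -0.21 ± 0.05, and 5 without XX replicate 3, the added ones being Mvd and Dhcr7. Of 9 metallothionein and zinc genes Mt1 and Slc30a4 were lower with and without that library, Mt1, which binds zinc, at 9.27, 6.25 and 11.7 CPM in XX and 3.89, 2.52 and 4.07 CPM in XY-Sry. Of 11 NRF2 genes Nqo1, Txn1 and Txnrd1 were higher, 2 of them, Nqo1 and Txn1, without XX replicate 3, and Hmox1 had 0.01. Of 12 p53 targets Phlda3, Bbc3 and Cdkn1a were higher. Phlda3, an inhibitor of AKT, had 20.96, 21.4 and 15.9 CPM in XX and 33.9, 34.2 and 32.4 CPM in XY-Sry and was the p53 target called without XX replicate 3.

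Of 10 heat shock chaperones Hsph1, Hspa1b and Hspd1 were higher, and of 17 Myc and ribosome biogenesis genes Bop1, Nop16, Nme1 and Odc1 were higher. None of these 7 was called without XX replicate 3, and Hspa1b may share reads with its near-identical copy Hspa1a. Myc had a log2 fold change of -0.07. Of 15 chromatin genes the DNA demethylases Tet2 and Tet1 were lower and the methyltransferase Dnmt3a higher, and Dnmt3a was not called without XX replicate 3 (edgeR adjusted p = 0.0574). Tet2 had 104, 105 and 113 CPM in XX and 78.3, 77.4 and 76.5 CPM in XY-Sry, a log2 fold change of -0.47 ± 0.06 (edgeR adjusted p = 0.00121), and was called whichever library was left out. Of 13 BCL2 family genes the survival gene Bcl2l1 and the death gene Bbc3 were higher and the survival gene Bcl2 lower, and without XX replicate 3 Bcl2l1 was called. Of 12 steroid receptor and response genes Akr1c18 was lower and Rxra, the partner of many nuclear receptors, higher at 0.51 ± 0.10, both with and without that library, while Nr3c1, the glucocorticoid receptor, had -0.08. Esr1, the estrogen receptor gene, had -0.87 and was not called. Of 15 JAK-STAT genes Stat5a was higher and Il7r and Il4ra lower, and without XX replicate 3 Il7r, Il4ra and Il2rb were lower and none higher.

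Lists of basic cell functions were close to the overall median. Of 26 cell cycle genes 1 was called, the mitotic checkpoint kinase Bub1 at -0.18 ± 0.05 (edgeR adjusted p = 0.0425, and 0.0783 without XX replicate 3), and the list median was 0.03. Mki67, the proliferation marker, had -0.18 and was not called. Of 70 cytosolic ribosomal protein genes Rpl27 and Rpl12 were called, both higher, with a list median of 0.06. Of 74 nuclear respiratory chain genes Sdhd was higher and Ndufv3 lower, with a list median of 0.06. Ndufv3, a complex I subunit, had 134, 145 and 151 CPM in XX and 98.8, 83.3 and 97.0 CPM in XY-Sry, and it was the only 1 of these 4 called without XX replicate 3.

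The other 6 libraries gave a comparison that shares no library with this one. XXSry minus XY- carries the same step in Sry and the opposite step in sex chromosomes. There 42 autosomal genes were called, or 0.305%, of which 28 (0.203%) were higher and 14 (0.102%) lower. Of these 42 genes 22 were also called in XY-Sry minus XX, which is 52.4% of the shorter list and 2.66% of the longer one, and all 22 had the same sign, 9 higher and 13 lower. The genes shared were Xdh, Dapl1, Rflnb, Mlf1, Egln3, F2r, Car12, B430306N03Rik, Emb, Arid5a, Lss, Slc35d3 and Msmo1 on the lower side, and Mcam, Zfp219, Nqo1, Tcf7, Endod1, Swap70, Kif1b, Ikzf2 and Dstyk on the higher side. Mlf1 (chr3:67374097-67400003), known from a myeloid leukemia fusion, had 15.9, 13.4 and 13.5 CPM in XX and 7.25, 7.04 and 8.36 CPM in XY-Sry. It had 14.98, 13.7 and 14.5 CPM in XY- and 8.29, 7.18 and 6.80 CPM in XXSry, so the libraries with Sry were low and those without were high in both pairs. Its log2 fold changes were -0.93 ± 0.12 and -0.96 ± 0.12 (edgeR adjusted p = 0.000616 and 0.00068). Mlf1 lies on chromosome 3, which also holds the Sry transgene. A response to Sry and an effect of position near the transgene cannot be told apart here, and neither was tested. Nqo1 had 1.20 in both comparisons, and Dapl1 had -1.80 and -1.40. Of the 826 genes called in XY-Sry minus XX, 647 or 78.3% had the same sign in XXSry minus XY-, against 54.1% of all tested autosomal genes. Among the 134 genes called in all 12 fits with a library left out it was 122, or 91.0%. The count of 42 was 84 without XX replicate 3, 15 without XY- replicate 2 or 3, 5 without XXSry replicate 2 and 25 without XY-Sry replicate 2.

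The sizes in the other pair were smaller. The genes called higher in XY-Sry minus XX had a median of 0.06 in XXSry minus XY-, and those called lower a median of -0.19, against 0.39 and -0.54 in XY-Sry minus XX. These genes were chosen by their result in XY-Sry minus XX, which favours large values there. Across all 13777 genes the log2 fold changes had a Pearson r of 0.27 and a Spearman rho of 0.17, as a description over genes that are not independent. The list medians of XXSry minus XY- were -0.19 for glycolysis and hypoxia, -0.40 for type I interferon, 0.10 for NF-kB and 0.06 for the NR4A, EGR and AP-1 genes. Il2, Utf1 and Ccl4, among the largest increases in XY-Sry minus XX, had -0.27, -0.10 and 0.00 there.

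**Figure D5:**
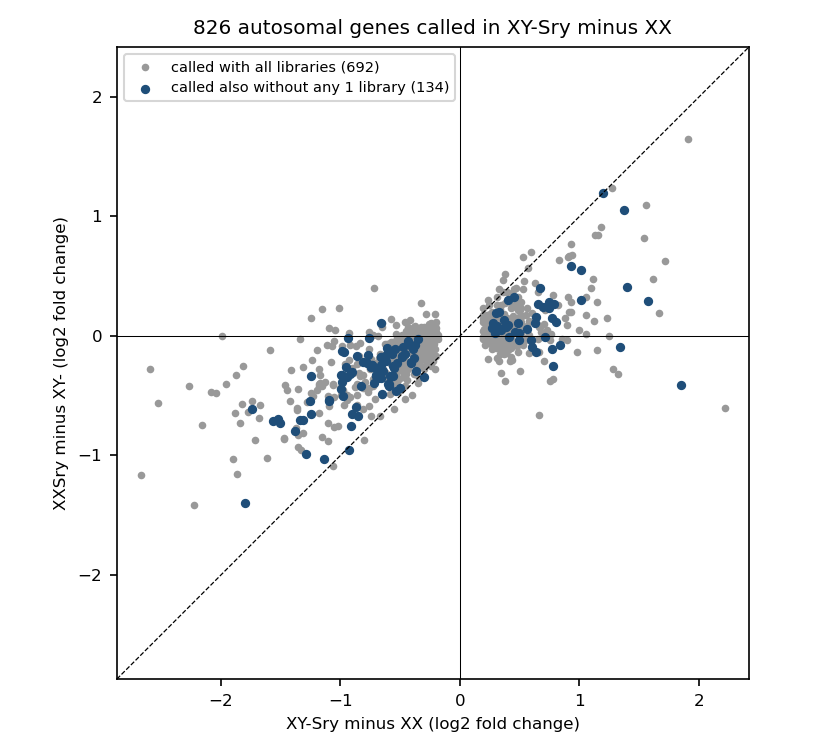
Log2 fold change of the 826 autosomal genes called in XY-Sry minus XX (horizontal axis) against their log2 fold change in XXSry minus XY- (vertical axis), with the 134 genes called also without any 1 library in blue and equal values on the dashed line. Of the 826 genes 647 lie in the areas of equal sign, and 625 of these lie closer to 0 on the vertical than on the horizontal axis.

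The difference between the comparisons was itself tested. It is the sum of both sex chromosome steps, and 3 autosomal genes passed, or 0.0218%: Plxna1 and Rpl12 with a positive difference (0.0145%) and Zbtb38 with a negative one (0.00726%). When adjusted over autosomal genes alone none passed in edgeR, the lowest adjusted p being 0.137, and 1954 genes had an unadjusted p under 0.05. Plxna1, the semaphorin receptor plexin A1, had 30.6, 27.1 and 31.3 CPM in XX, 47.3, 47.6 and 43.6 CPM in XY-Sry, 41.4, 35.5 and 40.3 CPM in XY- and 40.2, 35.8 and 30.9 CPM in XXSry. It was 0.64 ± 0.10 in XY-Sry minus XX and -0.13 ± 0.10 in XXSry minus XY-, a difference of 0.77 ± 0.14 (edgeR adjusted p = 0.0339). Rpl12 had 0.34 ± 0.08 and -0.31 ± 0.08, a difference of 0.65 ± 0.12 (edgeR adjusted p = 0.0464). Zbtb38, a zinc finger protein that binds methylated DNA, was called in XXSry minus XY- at 0.28 ± 0.05 and not in XY-Sry minus XX at -0.14 ± 0.05, a difference of -0.42 ± 0.07 (edgeR adjusted p = 0.0339). Lztfl1, Ahnak and Atp2b4 were called in XXSry minus XY- at 0.76 ± 0.10, 0.52 ± 0.07 and 0.59 ± 0.08 and had 0.10, 0.07 and 0.19 in XY-Sry minus XX. Their differences did not pass. The count of 3 was 73 without XY- replicate 2 and 11 without XXSry replicate 1. It was 1 when XX replicate 1 was dropped, and also when XY-Sry replicate 3 was. It was 0 on dropping replicate 1 or 3 of XY-, replicate 2 or 3 of XXSry, or replicate 1 or 2 of XY-Sry.

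Whether XY-Sry minus XX departs from the sum of the single steps from XX was tested as an interaction. No autosomal gene passed in edgeR, where 353 had an unadjusted p under 0.05, and none passed with DESeq2 or with limma-voom. The single steps share libraries with XY-Sry minus XX and are given side by side for leading genes. Xdh had -0.91 ± 0.11 in XXSry minus XX and -0.37 ± 0.10 in XY- minus XX, beside -1.10 in XY-Sry minus XX. Dapl1 had -1.37 ± 0.21 and 0.02 ± 0.19, beside -1.80. Il2 had 0.40 ± 0.33 and 0.67 ± 0.32, beside 1.28, and neither of its single steps was called. Nrn1 had -0.26 ± 0.09 and -0.05 ± 0.09, beside -0.81, and it was the only autosomal gene called in XY-Sry minus XXSry, at -0.55 ± 0.09 (edgeR adjusted p = 0.0233). Adjusted over autosomal genes alone no gene passed in that step, the lowest edgeR adjusted p being 0.33. The number of autosomal genes called was 0 in XY- minus XX, where 848 had an unadjusted p under 0.05 in edgeR, 63 (0.457%) in XXSry minus XX, 95 (0.69%) in XY-Sry minus XY- and 1 (0.00726%) in XY-Sry minus XXSry. Without XX replicate 3 the count of XXSry minus XX was 16.

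Called genes lay on all 19 autosomes, from 2.48% of the tested genes on chromosome 18 to 10.1% on chromosome 15, beside the 6% of all. Chromosome 15 had 52 called genes, 29 higher and 23 lower, and chromosome 16 had 4 higher and 19 lower. With genes split by mean level into 4 bins of equal size, 3.14% of the lowest bin and 8.33% of the highest were called, with median absolute log2 fold changes of 1.20 and 0.33 among the called genes. Of the 826 called genes 769 were protein-coding, and 19 were annotated as antisense. How the counting treated strand is not stated, so reads of a gene and of an overlapping gene on the other strand cannot be told apart, as for Il2 and Adad1, Junb and Prdx2, Nfkb2 and Psd, Itga7 and Mettl7b, and Lztfl1 and Ccr9.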

How the data were processed

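RNA-seq libraries of activated CD4+ T cells were read as raw gene counts from the table the authors deposited, 1 column for each of 12 libraries. Per the submitters' processing notes, bcl2fastq 2.17 was used and the build was mm10, and the aligner, counter and strand setting are not given in the sources used here. Gene names, chromosomes and positions came from GENCODE mouse release 21, which matched 37607 of the 39017 identifiers; the 1410 unmatched held 0.608% of the counts and were not assigned to a chromosome. Counts were scaled by TMM, filtered by group with filterByExpr (minimum count 10, total 15) and tested with edgeR 4.0.16 (R 4.3.3) by quasi-likelihood F-tests with 1 term per group over all 12 libraries. P-values were adjusted by Benjamini-Hochberg over all 14585 tested genes, and the threshold for a call was 0.05. Standard errors are the log2 fold change divided by the square root of F. CPM values use the TMM-scaled totals and are not per length, so levels are compared only within a gene. The method was also run on simulated counts with known changes in XY-Sry. The simulation held no outlying library, so it cannot show how the calls behave when a library stands apart.

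Leading genes were the 12 higher and 12 lower called protein-coding genes with the largest fold change, an average log2 CPM of at least 1 and no overlap between the groups. From each list up to 4 members with the lowest p and usual representatives were named, and other called members were named after their values were seen. From the other tests up to 6 genes with the lowest p were named. The members, the 31 gene lists and the 7 marker lists were chosen with earlier results of these data known. Gbp5, Gbp6, Bcl2a1d and Trdc of these lists were not analysed here. Single values of a few other list members are not reported here. Replicate pairs differed by more than sampling noise (chi-square per degree of freedom 2.57 to 19.5), so none was merged. Total counts of 11664186 to 16710188 in the 6 libraries limit the precision of low genes. Alternatives used DESeq2 1.42.0 and limma 3.58.1.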

Additional observations from a re-analysis of the deposited data

Results flagged for a closer look

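In 3 autosomal genes the difference between XY-Sry minus XX and XXSry minus XY- passed the edgeR test of that difference over all tested genes, on a log2 scale. It was 0.77 for Plxna1, 0.65 for Rpl12 and -0.42 for Zbtb38. Plxna1 and Rpl12 were higher in XY-Sry than in XX and had negative values in the other pair, and Zbtb38 had the opposite order. None of the 3 passed when p-values were adjusted over autosomal genes alone, and the set was not the same without single libraries, as given under the processing. With 3 libraries in each group no test for a single outlying library was made.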

How the results depend on the processing

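With all libraries the count of autosomal genes called in XY-Sry minus XX was 826, and it stayed within 1.5 times under DESeq2 size factors (827), a mean of at least 50 reads (767), the DESeq2 test (1133), limma-voom with sample weights (1001), adjustment over autosomal genes (826) and a fit of only these groups (996). It was 1713 with no filter on low counts, and leaving out 1 library gave 164 to 1179. Without XX replicate 3 the count of 383 became 1494 with no filter, 646 with the DESeq2 test, 1056 in a fit of only the groups compared, and 756 with the replicate block, alternatives chosen after seeing the data. The 42 calls of XXSry minus XY- became 356 with no filter, 180 with the DESeq2 test, 1454 with limma-voom weights and 16 in a fit of only those groups, and 5 to 84 without 1 library. The 3 calls of the difference between these comparisons became 597 with no filter, 5 with a mean of at least 50 reads, 63 with the DESeq2 test, 295 with limma-voom weights and 0 when adjusted over autosomal genes, and 0 to 73 without 1 library, 73 being without XY- replicate 2. The interaction gave 20 calls with no filter and 0 otherwise, with and without each library. The cause was not tested. No called gene that the text names reversed, which for XY-Sry minus XX was nearly fixed in advance by the lack of overlap between the groups. List medians moved by more than the spread between libraries in 27 cases without 1 library and in 7 under other settings. On leaving out XX replicate 3, 4 medians near 0 or of few genes changed sign: activation markers (-0.02 to 0.03), unfolded protein response (-0.01 to 0.03), gamma delta and NKT markers (-0.17 to 0.18) and myeloid markers (-0.13 to 0.02).

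Replicate numbers in the labels do not say what they share. Same-numbered XX and XY-Sry libraries had correlations of their deviations of -0.01, -0.12 and -0.03. Same-numbered XY- and XXSry libraries had 0.23, -0.10 and -0.16. No pairing by number was seen for XX and XY-Sry, but so few correlations cannot tell if same-numbered libraries shared a step. With the replicate block 1120 genes were called in XY-Sry minus XX, 57 in XXSry minus XY-, 10 in the difference and 0 in the interaction, and no XX library correlated best with the XY-Sry library of its own number.

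Genes with few reads were called only when they changed much, so small differences in low genes were not detectable at this depth. Leaving out a library of a group leaves 2, and the estimate of spread is then shared with the other groups.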
